A study of Mus musculus with 6 samples.

Results

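The untreated mouse embryo at the 4-cell stage was described from the control libraries of a study of lactate dehydrogenase B (LDHB). The members were all libraries whose labels give the treatment as Control, which are 3 of the 6 libraries of the series, and the other 3 libraries, of embryos given an LDHB inhibitor, were not used. Every control library carries the genotype label WT and the cell type label 4-Cell, and no strain, age of the mothers or culture medium is given. The design text names 6 embryos per group with 3 replicates, and its wording leaves unclear whether 6 embryos went into each library or into all of them. The labels do not tie the replicates to different litters or cultures, and their spread, which may be technical, is a spread between libraries. Each library is a mixture of whole embryos, so a gene used by few cells and a gene used weakly by every cell cannot be told apart, and neither can fewer cells of a type and less RNA per cell.

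RNA was primed at its poly(A) tail and copied into full-length complementary DNA, which was amplified by PCR before sequencing. The deposited unit is FPKM, fragments per kilobase of transcript and per 1e6 mapped fragments, which scales levels by length. Shorter genes still stood higher. Over 15798 nuclear coding genes above 0, Spearman's rho between the longest transcript and mean FPKM was -0.229. The median longest transcript was 3380 bases from 0.1 to 1 FPKM and 1444 bases at 100 FPKM and above. The cause was not tested, so levels of short and long genes are compared with that limit. The table lists 29431 genes, and no molecule or read counts could be recovered from it, so sequencing depth is unknown and zeros are reported as the table lists them. The 3 libraries summed to 518925.9, 511533.8 and 524538.5 FPKM, and 20997, 21803 and 22142 genes stood above 0. At a threshold of 1 FPKM, 8055 genes were reached by all 3 libraries, 3070 at 10 FPKM, 631 at 100 FPKM and 59 at 1000 FPKM. Of 16469 genes that the table labels protein coding, 44.1% had a mean of at least 1 FPKM, and the median over all of them was 0.632 FPKM.

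A mouse embryo begins with RNA and protein stored in the oocyte and switches on its own genome mainly at the late 2-cell stage, when a burst of stage-specific genes, among them the Zscan4, Usp17, Tdpoz and Obox clusters, is transcribed. By the 4-cell stage most maternal RNA is being cleared, the 2-cell burst is fading, and genes of ribosomes, translation and the pluripotent state are being used. At this time the embryo depends on pyruvate and lactate rather than glucose, and energy comes mainly from mitochondria.

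The stage label was set against marker genes. Dppa3, a factor that protects the maternal genome from loss of DNA methylation, stood at 14495.5, 13053.5 and 13185.9 FPKM in controls 1, 2 and 3. Klf17, a transcription factor of early cleavage stages, stood at 162, 171 and 154 FPKM, and Obox6, a homeobox gene switched on with the embryonic genome, at 1501, 1138 and 1088 FPKM. Cdx2, which defines the later trophectoderm, was listed at 0, 0 and 0.127 FPKM, and Krt7 and Tfap2a of the same lineage were listed at 0 in all 3 libraries. The lineage was not silent as a set. Of 14 trophectoderm genes 5 had a mean of at least 1 FPKM, Tfap2c and Tead4 among them, beside 44.1% of all coding genes. The 8 markers set for the preimplantation embryo include Dppa3 but not Klf17 or Obox6. Among them 7 had a mean of at least 1 FPKM, and 5 reached 1 FPKM in all 3 libraries. Ooep and Tle6 averaged close to 1 FPKM, and Nlrp5, a maternal factor of the egg cortex, stood at 0.884, 0.229 and 1.49 FPKM.

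Markers of cells that could be carried along were mostly low. Of 10 cumulus and granulosa genes 6 were listed at 0 or not listed, including the defining genes Fshr, Cyp19a1 and Foxl2 at 0, while Amhr2, the receptor for anti-Mullerian hormone, stood at 10.1, 13.5 and 15.6 FPKM. The summed level of the cumulus genes was 10.3, 13.5 and 16.8 FPKM, nearly all of it Amhr2. In the erythroid set the alpha-globin gene Hba-a1 stood at 146, 100 and 138 FPKM and its near copy Hba-a2 at 34.3, 25.8 and 37.8 FPKM, while the beta-globin genes Hbb-bs and Hbb-bt were listed at 0 in every library. Oviduct, leukocyte, fibroblast and sperm genes summed to 0.632, 0.324 and 0.824 FPKM, to 3.90, 1.96 and 1.77 FPKM, to 0, 0.0229 and 0 FPKM, and to 1.28, 0.884 and 0.212 FPKM.

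Expression was concentrated in few genes. The 10 most abundant genes took 20.6%, 21.5% and 23.9% of the summed FPKM, and 102, 97 and 79 genes together made up the first 50%. Of the 30 most abundant genes, 9 lay on mitochondrial DNA, 15 were predicted models with Gm symbols, and the 6 others were nuclear coding genes. By class in the GENCODE M21 annotation, nuclear coding genes took 56.8% ± 2.27 of FPKM, genes of mitochondrial DNA 16.9% ± 1.92, unprocessed pseudogenes 14.05% ± 0.847, processed and other pseudogenes 10.5% ± 0.479, and long non-coding genes 1.41% ± 0.107 (SD, n = 3).

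**Figure D1:**
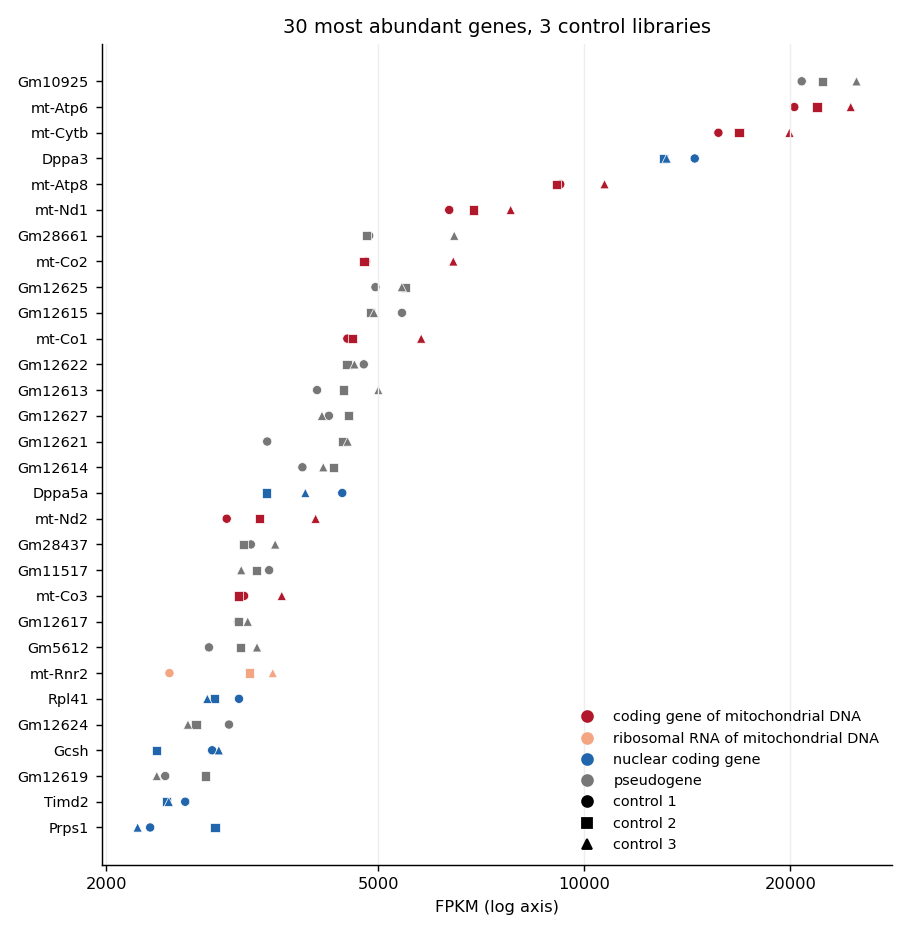
FPKM (x axis, log) of the 30 genes with the highest mean over the control libraries, ranked down the page, with 1 marker shape per library and the annotated class in colour. Gm10925 and mt-Atp6 lie together at the top, Dppa3 is the highest nuclear coding gene at a mean of 13578.3 FPKM, and control 3 lies to the right for the genes of mitochondrial DNA.

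The 13 coding genes of mitochondrial DNA, which encode subunits of the respiratory chain and ATP synthase, took 13.6%, 14.6% and 16.6% of FPKM. mt-Atp6, an ATP synthase subunit, stood at 20267.5, 21883.2 and 24506.7 FPKM, mt-Cytb of complex III at 15698.3, 16830.2 and 19943 FPKM, and mt-Co1 of complex IV at 4502, 4582 and 5773 FPKM. In each of these genes control 3 was highest and control 1 lowest. The most abundant row of the whole table was Gm10925, an unprocessed pseudogene on chromosome 1 at chr1:24613974-24614651 (GRCm38, minus strand), at 20779, 22289.8 and 24987.8 FPKM. It is identical to mt-Atp6 over 678 bases, and its mean was 1.02 times that of mt-Atp6.

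The same held for its neighbours in a nuclear copy of mitochondrial DNA on chromosome 1. Gm28661, Gm28437 and Gm10222, identical over their length to mt-Co2, mt-Co3 and mt-Nd4l, stood at 1.01, 1.004 and 0.99 times the mean FPKM of those genes. The other 3 copies there, Gm29216, Gm28439 and Gm28438, stood at 0.42, 0.40 and 1.36 times the levels of mt-Co1, mt-Nd4 and mt-Nd3. The 7 copies together took 6.26%, 6.71% and 7.58% of FPKM. Copies on chromosomes 2 and 13, which were 95.2% to 97.6% identical, stood at no more than 22.2 FPKM in any library. The treatment of reads shared by identical sequences is unstated, which leaves the levels of such pairs uncertain, and most copy rows were chosen after their values were seen.

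The largest nuclear block of expression was a tandem array of predicted genes on chromosome 11. Between Alkbh5 and Llgl1 the table lists 16 genes, all on the minus strand, which summed to 42306, 44129.5 and 44204 FPKM, or 8.15%, 8.63% and 8.43% of the total. The flanking genes Alkbh5, at 0.880, 1.66 and 1.61 FPKM, and Llgl1, at 1.12, 0.818 and 1.56 FPKM, were near 1 FPKM.

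Gm12625, the member with the highest mean, stood at 4949, 5483 and 5408 FPKM, Gm12615 at 5411, 4868 and 4924 FPKM, and Gm12622 at 4759, 4496 and 4611 FPKM. Gm12615 was the highest member in control 1 and Gm12625 in controls 2 and 3. Of the 16 genes 11 reached a mean of 1000 FPKM. The 10 of these with 382 or 385 bases were 98.4% to 99.5% identical to Gm12625, leaving Gm12625 itself aside, with 90 or 91 codons before the first stop. Gm12617, at the far end of the array, was 85.6% identical to Gm12625, had 126 codons before its first stop and stood at 3118, 3124 and 3220 FPKM. Gm12628 had 58 codons before its first stop and stood at 540, 541 and 649 FPKM. The 4 longer genes of the array, Gm12612, Gm12620, Gm12623 and Gm12626, with 1983 or 1986 bases, stood at 3.86 to 9.41 FPKM. Gm11517, a processed pseudogene of 387 bases elsewhere on chromosome 11, stood at 3460, 3317 and 3150 FPKM. The array rests on near-identical copies, so the split of its sum between members is uncertain, and several members were named after their values were seen.

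Among families of coding genes, the 83 cytosolic ribosomal proteins took 6.48%, 5.64% and 5.51% of FPKM, and all 83 stood at or above 1 FPKM in every library. Rpl41 stood at 3126, 2879 and 2810 FPKM and Rpl19 at 1687, 1371 and 1484 FPKM. Control 1 was highest for both. Nuclear subunits of the respiratory chain and ATP synthase took 1.26%, initiation factors 1.22%, histones 1.10%, proteasome subunits 0.968% and mitochondrial ribosomal proteins 0.912% of FPKM on average. In these families 83 of 84, 51 of 57, 25 of 75, 35 of 38 and 77 of 78 listed genes had a mean of at least 1 FPKM. The share over all coding genes was 44.1%. Priming at poly(A) tails misses RNA without a tail, so genes below this level, histones among them, may still be expressed. The 44 listed Obox homeobox genes, pseudogenes included, took 0.406%, with 15 of them at a mean of at least 1 FPKM. The 368 zinc finger genes named Zfp took 0.376%, with 165 of them at that level, which is near the share over all coding genes.

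The nuclear coding genes at the top included regulators as well as ribosomal genes. Behind Dppa3 came Dppa5a, an RNA-binding gene of pluripotent cells, at 4426, 3429 and 3909 FPKM. Gcsh, the lipoyl-carrying protein of the glycine cleavage system, stood at 2856, 2367 and 2921 FPKM, and Timd2, a cell surface protein that binds ferritin, at 2609, 2448 and 2468 FPKM. For Gcsh control 2 was lowest, and the Timd2 values lay within a coefficient of variation (CV, the SD as a percent of the mean) of 3.49%. Prps1, which makes the phosphoribosyl donor for nucleotides, stood at 2318, 2885 and 2223 FPKM, and Hprt, which salvages purines, at 1763, 1890 and 1724 FPKM. Control 2 was highest for both. The near-identical copy of Dppa3, Dppa3-ps, stood at 84.3 FPKM on average. Below the 30 most abundant genes, and so named after their values were seen, came H3f3b (histone H3.3) at a mean of 2381 FPKM, Mad2l1bp (which silences the spindle checkpoint) at 2267, Cks2 (a subunit of cyclin-dependent kinases) at 2247, the tripartite motif paralogs Trim43b and Trim43a at 1669 and 1668, and Npm1 (a nucleolar chaperone) at 1208 FPKM.

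Genes of the oocyte and maternal list ranged widely, with Dppa3 far above the others. FPKM does not separate RNA stored by the oocyte from RNA newly made by the embryo. What part of these levels was stored is unknown. Of 58 genes of the oocyte and maternal list 57 were listed, 33 had a mean of at least 1 FPKM, beside 44.1% of all coding genes, and 12 a mean of at least 10 FPKM. Their list median on the log2(FPKM + 1) scale was 0.94, 1.21 and 1.74 in controls 1, 2 and 3, beside 0.71 for the means of all coding genes. The list took 2.90%, 2.63% and 2.64% of FPKM, and 0.111%, 0.0825% and 0.122% without Dppa3. For this list the order of the libraries differed with and without Dppa3, since control 1 was highest with it and control 3 without it.

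By role, Zp3, a glycoprotein of the zona pellucida, stood at 26.8, 23.7 and 34.8 FPKM, while the other zona genes Zp1 and Zp2 averaged 0.934 and 0.871 FPKM. Among oocyte-secreted factors Oosp1 averaged 15.3, Oosp3 7.55, Gdf9 2.12 and Bmp15 1.43 FPKM. Of the subcortical maternal complex, a protein lattice of the egg cortex, and its partners, Khdc3 stood at 16.0, 7.35 and 20.6 FPKM and Padi6 at 12.4, 10.8 and 11.1 FPKM. Khdc3 varied nearly 3-fold between libraries, whereas Padi6 had a CV of 7.56%. The core members Ooep, Tle6 and Nlrp5 averaged 1.01, 1.01 and 0.868 FPKM.

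Btg4, an adaptor that recruits the deadenylase for clearance of maternal RNA, stood at 8.50, 16.3 and 42.3 FPKM, while Cnot7, the deadenylase subunit it binds, stood at 24.5, 25.05 and 22.2 FPKM. Only the adaptor of this pair differed widely between libraries, with a CV of 79.1% beside 6.27%. Zar1, which holds maternal RNA in store, averaged 0.176 FPKM and its paralog Zar1l 6.48 FPKM. Pabpc1l, the poly(A)-binding protein of oocytes, was listed at 0 in all 3 libraries. Npm2, a chaperone that remodels sperm chromatin, stood at 33.4, 30.9 and 35.7 FPKM. H1f8, the oocyte linker histone, stood at 1.18, 3.73 and 12.4 FPKM, and control 3 stood apart. Aurkc, a meiotic kinase that also acts in cleavage divisions, stood at 344, 176 and 241 FPKM, but its near-identical copy Gm12463 averaged 239 FPKM, so its level is uncertain. Mos, the kinase of meiotic arrest, stood at 0.0632, 1.61 and 1.15 FPKM. Among oocyte transcription factors Obox5 stood at 10.7, 13.2 and 35.8 FPKM and Taf4b at 12.5, 14.9 and 21.97 FPKM, while Nobox, Figla and Lhx8, which drive follicle growth, averaged 0.451, 0.229 and 0.0712 FPKM.

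Genes of the 2-cell burst were still listed, with Obox6 far above the other members. Of 38 genes 37 were listed, and 26 had a mean of at least 1 FPKM, beside 44.1% of all coding genes. The list median was 1.43, 1.84 and 1.82 on the log2(FPKM + 1) scale, above that of the oocyte list in each library. Over members with a mean of at least 1 FPKM the order turned, with medians of the means of 2.23 for the 2-cell list and 2.76 for the oocyte list. The list took 0.325%, 0.314% and 0.252% of FPKM, and 0.0358%, 0.0914% and 0.0444% without Obox6. Duxf3, the transcription factor that starts the burst, was listed at 0 in all 3 libraries. In the Zscan4 cluster, whose proteins act at telomeres, Zscan4d stood at 3.08, 1.35 and 4.43 FPKM and Zscan4c at 0.187, 0.575 and 1.34 FPKM. These cluster members are close paralogs, and their split is uncertain.

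Usp17lb, a deubiquitinase of a tandem cluster, stood at 26.5, 180 and 15.6 FPKM. Among members with a mean above 10 FPKM it had the widest spread, with a CV of 124%. Tdpoz5, of a cluster of BTB-domain genes, stood at 26.3, 54.8 and 30.3 FPKM, and Zfp352, a zinc finger gene of the same stage, at 0.415, 8.44 and 0.266 FPKM. Control 2 was highest in all 3 genes. Sp110 and Sp140, nuclear body genes, stood at 32.6, 57.3 and 55.5 FPKM and at 16.9, 25.5 and 30.1 FPKM, with control 1 lowest in both.

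All 28 genes of the pluripotency list were listed, and 20 had a mean of at least 1 FPKM, beside 44.1% of all coding genes. The list median was 2.46, 2.09 and 2.45 on the log2(FPKM + 1) scale, and the list took 1.18%, 1.003% and 1.05% of FPKM, or 0.323%, 0.333% and 0.305% without Dppa5a. Dppa2 and Dppa4, a pair of chromatin factors that prime genes of the 2-cell stage and of development, stood at 566, 523 and 456 FPKM and at 475, 517 and 501 FPKM. Fbxo15, a target of Oct4, stood at 343, 370 and 357 FPKM with a CV of 3.77%. The core factors were far lower. Pou5f1, which encodes Oct4, stood at 3.98, 1.15 and 3.82 FPKM, Nanog at 5.14, 3.25 and 2.71 FPKM, and Sox2 at 0, 0.0307 and 0 FPKM. Zfp42, Sall4 and Nr5a2 averaged 25.7, 23.3 and 16.0 FPKM. Of the Kruppel-like factors Klf17 averaged 162 FPKM and Klf2, Klf5 and Klf4 averaged 9.25, 8.92 and 5.09 FPKM.

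**Figure D2:**
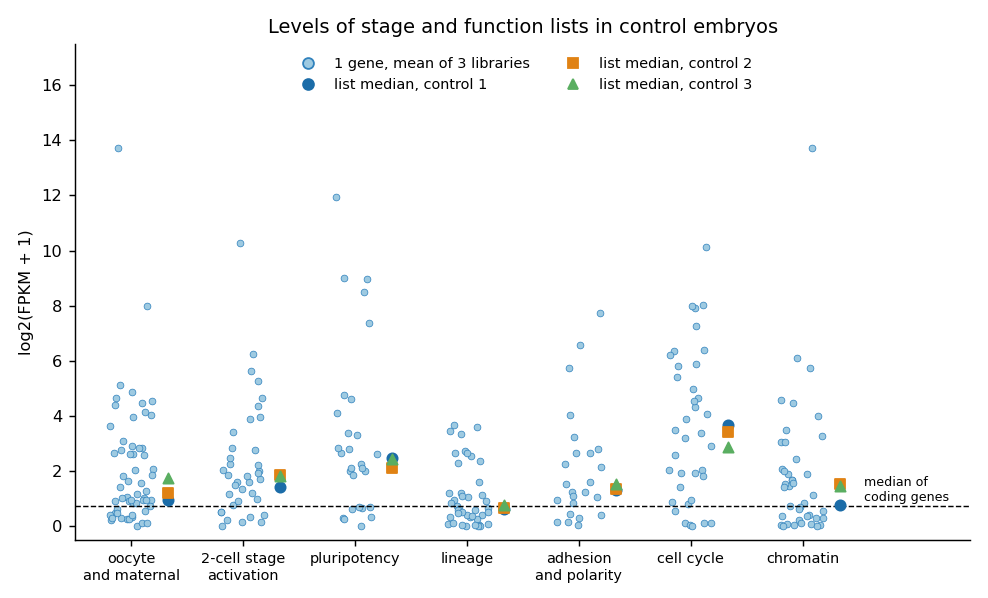
log2(FPKM + 1) (y axis) of every listed gene of 7 lists (x axis), with small circles for the mean of the control libraries and 3 larger markers for the list median in each library. The dashed line is the median of all coding genes at 0.71. The cell cycle list is highest and the lineage list lies on the line, and single genes (Dppa3, Dppa5a, Obox6, Ccnb1) lie far above their lists.

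Lineage genes of the blastocyst stood near the level of coding genes in general. Of 43 genes 42 were listed and 16 had a mean of at least 1 FPKM, beside 44.1% of all coding genes, and the list median of the means was 0.64 on the log2(FPKM + 1) scale, beside 0.71 for all coding genes. For the trophectoderm Tfap2c stood at 10.8, 11.5 and 10.9 FPKM and Tead4 at 7.34, 9.53 and 10.3 FPKM, and for the primitive endoderm Gata4 stood at 4.06, 3.82 and 6.36 FPKM and Gata6 at 1.11, 0.730 and 0.840 FPKM. In the Hippo pathway, which restrains trophectoderm genes in inner cells, the coactivator Wwtr1 averaged 11.6 FPKM and its paralog Yap1 2.06 FPKM, and the kinases Lats1 and Lats2 averaged 0.591 and 1.08 FPKM. Of genes reported to differ between sister cells of the 4-cell embryo, Sox21, a target of Oct4 and Sox2, stood at 0.502, 0.720 and 2.36 FPKM, and Carm1, an arginine methyltransferase, at 0.295, 0.561 and 0 FPKM.

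Adhesion and polarity genes had 16 of 24 members at a mean of at least 1 FPKM, beside 44.1% of all coding genes. F11r, a junction adhesion molecule, stood at 94.1, 107 and 80.4 FPKM, and Cdc42, the polarity GTPase, at 241, 199 and 202 FPKM. Cdh1, the cadherin of compaction, stood at 1.14, 1.16 and 1.68 FPKM. Cell cycle genes were the highest list by median, at 3.66, 3.41 and 2.87 on the log2(FPKM + 1) scale. Of these 37 genes 28 had a mean of at least 1 FPKM, beside 44.1% of all coding genes. Ccnb1, the mitotic cyclin, stood at 1204, 1232 and 937 FPKM and Ccna2 at 232, 240 and 255 FPKM, while the D cyclins Ccnd1, Ccnd2 and Ccnd3 averaged 0.735, 0.0804 and 3.06 FPKM. Cdc20, the mitotic activator of the anaphase-promoting complex, stood at 207, 252 and 319 FPKM, and Fzr1, its counterpart for the end of mitosis and G1 phase, averaged 0.462 FPKM. Mad2l1 and Bub3 of the spindle checkpoint averaged 73.2 and 41.4 FPKM and Bub1b 0.898 FPKM.

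Of chromatin genes 22 of 41 had a mean of at least 1 FPKM, beside 44.1% of all coding genes. Dnmt1, the maintenance DNA methyltransferase, stood at 0.387, 0.472 and 1.44 FPKM and its partner Uhrf1 at 0.226, 0.377 and 0.753 FPKM. Dnmt3l, a cofactor of the de novo enzymes, averaged 10.2 FPKM. Among the dioxygenases that remove methylation, Tet1 stood at 2.29, 2.60 and 3.19 FPKM and the oocyte enzyme Tet3 at 0.146, 0.232 and 0.304 FPKM, and the values of the pair did not overlap. In the Polycomb complex 2 core, which methylates histone H3, Eed averaged 52.3, Suz12 15.1 and Ezh2 8.67 FPKM. Of 11 histone deacetylases Hdac1 stood at 69.2, 78.7 and 57.2 FPKM and Hdac2 at 26.7, 16.4 and 26.1 FPKM. Hdac6 averaged 1.70 FPKM, and the other 8 averaged below 1 FPKM.

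Of 27 imprinted genes 7 had a mean of at least 1 FPKM, beside 44.1% of all coding genes. Snrpn, a paternally expressed splicing gene, stood at 83.1, 93.3 and 65.5 FPKM. Xist, the RNA that silences an X chromosome, stood at 0.0368, 0.919 and 2.03 FPKM, and its antisense gene Tsix at 0.689, 1.9999 and 0.0234 FPKM. The labels do not say that strand was kept, so reads of this overlapping pair cannot be told apart. The Y-linked Eif2s3y stood at 9.68, 2.69 and 7.81 FPKM and Ddx3y at 1.31, 1.18 and 1.10 FPKM. Of 25 signalling genes 7 had a mean of at least 1 FPKM, beside 44.1% of all coding genes. They were led by the ligand Fgf4 at 3.95, 8.67 and 5.15 FPKM and the receptor Igf2r at 4.39, 4.32 and 4.71 FPKM.

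Promoters rich in CpG are typical of housekeeping genes in mammals, and their number was counted for each group. The stretch from 250 bases before to 50 after each start (RefSeq, GRCm38.p6) was matched by symbol for 13168 of 16944 genes annotated as coding. The median number of CpG was 19 over all of these, 12 for genes with a mean under 0.1 FPKM, 18 from 0.1 to 1 FPKM, and 22 in each of the classes above 1 FPKM. It was 9 in 43 genes of the oocyte list, 2 in 20 genes of the 2-cell list and 17 in 19 genes of the pluripotency list. Under 10 CpG were found in 95% of the 2-cell promoters, 51.2% of the oocyte promoters and 26.8% of all promoters. The letters TATAAA, searched on both strands, were present in 45% of the 2-cell promoters, 9.30% of the oocyte promoters and 8.79% of all promoters. They lay 31 bases before the start in Usp17lb, Zscan4f and Zscan4b. In the other 2-cell promoters with them they lay from 189 bases before the start (Obox3) to 35 bases after it (Ddit4l). The share thus counts the letters at any place in the stretch. Members of the 2-cell clusters share sequence, so their promoters are not independent. Of the 40 most abundant nuclear coding genes 32 had a promoter, 28 of them with at least 10 CpG, and the 4 others were Timd2, Trim43a, Tomm5 and Crxos. For Timd2 and Crxos the RefSeq stretch lay inside the GENCODE M21 gene, away from its annotated start.

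To show the contrast at similar high levels, the promoters of Timd2 (3 CpG) and Trim43a (1 CpG) are printed beside that of Hprt (22 CpG), with every CG in capitals, followed by that of Usp17lb (1 CpG), the gene of this list with the widest spread above 10 FPKM, with TATAAA in capitals 31 bases before the start. Their positions are chr11:46698781-46699080 (minus strand), chr9:88580641-88580940 (plus), chrX:52987828-52988127 (plus) and chr7:104842534-104842833 (minus). The Timd2 stretch lies inside the annotated gene, chr11:46668960-46707061, so it may not be the promoter in use here.
Timd2: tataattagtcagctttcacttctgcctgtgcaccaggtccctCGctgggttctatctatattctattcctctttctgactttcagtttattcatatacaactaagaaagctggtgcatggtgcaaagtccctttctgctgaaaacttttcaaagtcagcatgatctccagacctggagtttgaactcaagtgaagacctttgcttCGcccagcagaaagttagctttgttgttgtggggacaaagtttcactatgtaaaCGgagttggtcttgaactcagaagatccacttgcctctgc
Trim43a: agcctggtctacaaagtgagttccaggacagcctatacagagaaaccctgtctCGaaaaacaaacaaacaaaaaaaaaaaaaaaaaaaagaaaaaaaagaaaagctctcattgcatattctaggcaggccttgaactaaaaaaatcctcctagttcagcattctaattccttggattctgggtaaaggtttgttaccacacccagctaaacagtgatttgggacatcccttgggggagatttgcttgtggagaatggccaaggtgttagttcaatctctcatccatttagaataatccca
Hprt: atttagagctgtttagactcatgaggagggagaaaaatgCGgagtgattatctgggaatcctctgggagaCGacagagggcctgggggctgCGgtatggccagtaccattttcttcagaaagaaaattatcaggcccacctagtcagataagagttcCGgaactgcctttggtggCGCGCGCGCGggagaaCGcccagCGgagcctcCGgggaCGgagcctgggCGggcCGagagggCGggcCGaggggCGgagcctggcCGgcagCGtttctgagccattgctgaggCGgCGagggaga
Usp17lb: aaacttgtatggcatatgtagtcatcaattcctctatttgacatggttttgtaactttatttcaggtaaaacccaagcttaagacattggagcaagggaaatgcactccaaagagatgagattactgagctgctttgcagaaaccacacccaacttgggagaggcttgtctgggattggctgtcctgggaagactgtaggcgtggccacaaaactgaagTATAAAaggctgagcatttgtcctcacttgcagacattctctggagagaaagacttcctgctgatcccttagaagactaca

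Isoform choice in metabolism was taken from 54 families of paralogs or alternative subunits, of which 50 had a summed mean of at least 1 FPKM. The same gene led in all 3 libraries in 44 of the 50, in 33 it held at least 75% of the family's FPKM in every library, and in 20 at least 90%. In 6 families the leading gene differed between libraries, namely the glucose transporters, hexokinases, creatine kinases, glutathione peroxidases, thioredoxins and methylenetetrahydrofolate dehydrogenases. The mitochondrial pyruvate carrier and NAD isocitrate dehydrogenase families consist of subunits of 1 complex rather than alternatives. In the phosphoglycerate kinase family only 1 of 2 members was listed. Pgk1 thus held 100% by construction, and the family is counted in both the 33 and the 20.

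For lactate and pyruvate, Ldhb, whose enzyme favours the oxidation of lactate to pyruvate, stood at 24.0, 22.7 and 52.0 FPKM. Ldha, whose enzyme favours the formation of lactate, stood at 4.13, 2.92 and 1.64 FPKM, and the germ cell form Ldhc at 3.85, 6.79 and 7.52 FPKM. Ldhb thus held 75.1%, 70.003% and 85.03% of the family's FPKM, led in every library and stood above both others in each, but missed 75% in control 2. A near copy, Ldhb-ps, averaged 9.64 FPKM. The lactate transporter Slc16a1 stood at 3.66, 7.03 and 6.29 FPKM and held at least 97.6% of its family. Mpc1, a subunit of the mitochondrial pyruvate carrier, stood at 328, 325 and 236 FPKM and Mpc2 at 53.6, 50.8 and 56.5 FPKM, but Mpc1 has an identical copy, Mpc1-ps, at a mean of 747 FPKM. Pdha1, the somatic pyruvate dehydrogenase subunit, stood at 38.9, 48.6 and 55.5 FPKM and its testis paralog Pdha2 at 0.185 FPKM or less.

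By their median, glycolytic families stood below those of the respiratory chain, with overlap. The 8 glycolysis families with a summed mean of at least 1 FPKM had a median summed mean of 5.89 FPKM, beside 279 FPKM for the 9 families of the respiratory chain. Single coding genes averaging 1 FPKM or more had a median of 6.30 FPKM. Pgam1, phosphoglycerate mutase, stood at 69.2, 68.8 and 58.4 FPKM and Aldoa, aldolase, at 25.8, 28.6 and 25.4 FPKM. Pkm, pyruvate kinase, stood at 0.777, 0.638 and 2.28 FPKM, and Eno1, enolase, averaged 1.77 FPKM with 3 near-identical copies summing to 6.68 FPKM. Gapdh, glyceraldehyde phosphate dehydrogenase, stood at 0.101, 0.0600 and 0.0388 FPKM, and its near-identical copies listed here summed to 0.00388 FPKM on average. Hexokinases and phosphofructokinases summed to 3.20 and 0.698 FPKM, and the glucose transporters, led by Slc2a3 in control 1 and Slc2a8 in the others, to 4.26 FPKM. Tpi1 and Gpi1, which have no paralog and were named after their values were seen, averaged 0.807 and 1.22 FPKM.

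In the malate-aspartate shuttle, which carries electrons of NADH into mitochondria and is named in the title of the study, the mitochondrial enzyme Mdh2 stood at 226, 228 and 205 FPKM and the cytosolic Mdh1 at 4.78, 4.57 and 4.81 FPKM. The transaminases ran the other way, with the cytosolic Got1 at 11.9, 9.58 and 9.08 FPKM and the mitochondrial Got2 at 1.32, 1.67 and 1.18 FPKM. The pairs did not overlap in any library. The aspartate-glutamate carrier Slc25a12 averaged 5.07 FPKM and Slc25a13 1.49 FPKM. In the glycerol phosphate shuttle Gpd1l stood at 156, 177 and 171 FPKM, the mitochondrial Gpd2 at 8.42, 9.06 and 12.1 FPKM, and Gpd1 at no more than 0.0523 FPKM. In the citric acid cycle the regulatory subunit Idh3g of NAD isocitrate dehydrogenase averaged 246 FPKM while the catalytic subunit Idh3a averaged 3.04 FPKM.

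In the respiratory chain the general isoforms led. Cox4i1, Cox6a1, Cox6b1, Cox8a and Cycs held at least 98.2%, 99.97%, 96.1%, 98.7% and 98.4% of their families in every library, at mean levels of 268, 483, 288, 348 and 146 FPKM. Their tissue or germ cell counterparts Cox4i2, Cox6a2, Cox6b2, Cox8c and Cyct averaged 4.59, 0.0591, 9.98, 4.32 and 1.63 FPKM. The lead was narrower for Cox7a2, with at least 75.9% of its family, and for Cox7b, with 73.1%, 63.8% and 66.6%. The paralog Cox7b2 stood at 7.95, 14.9 and 8.08 FPKM. The ADP/ATP carrier Slc25a5 stood at 216, 298 and 248 FPKM. The c subunit of ATP synthase was split, with Atp5g1 at 93.9, 87.5 and 122 FPKM and Atp5g3 at 85.4, 68.9 and 59.9 FPKM, and a near-identical copy of Atp5g1, Gm10039, averaged 1142 FPKM. Nucleotide synthesis was led by Prps1, with at least 90.4% of its family, and by Impdh2, which commits purines to guanine nucleotides, at 295, 319 and 297 FPKM. Mat2a, which makes the methyl donor S-adenosylmethionine, stood at 146, 193 and 161 FPKM with Mat1a listed at 0. Of the redox families none held 75% in 1 gene in all libraries, and Gpx1 and Gpx4 averaged 130 and 128 FPKM.

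**Figure D3:**
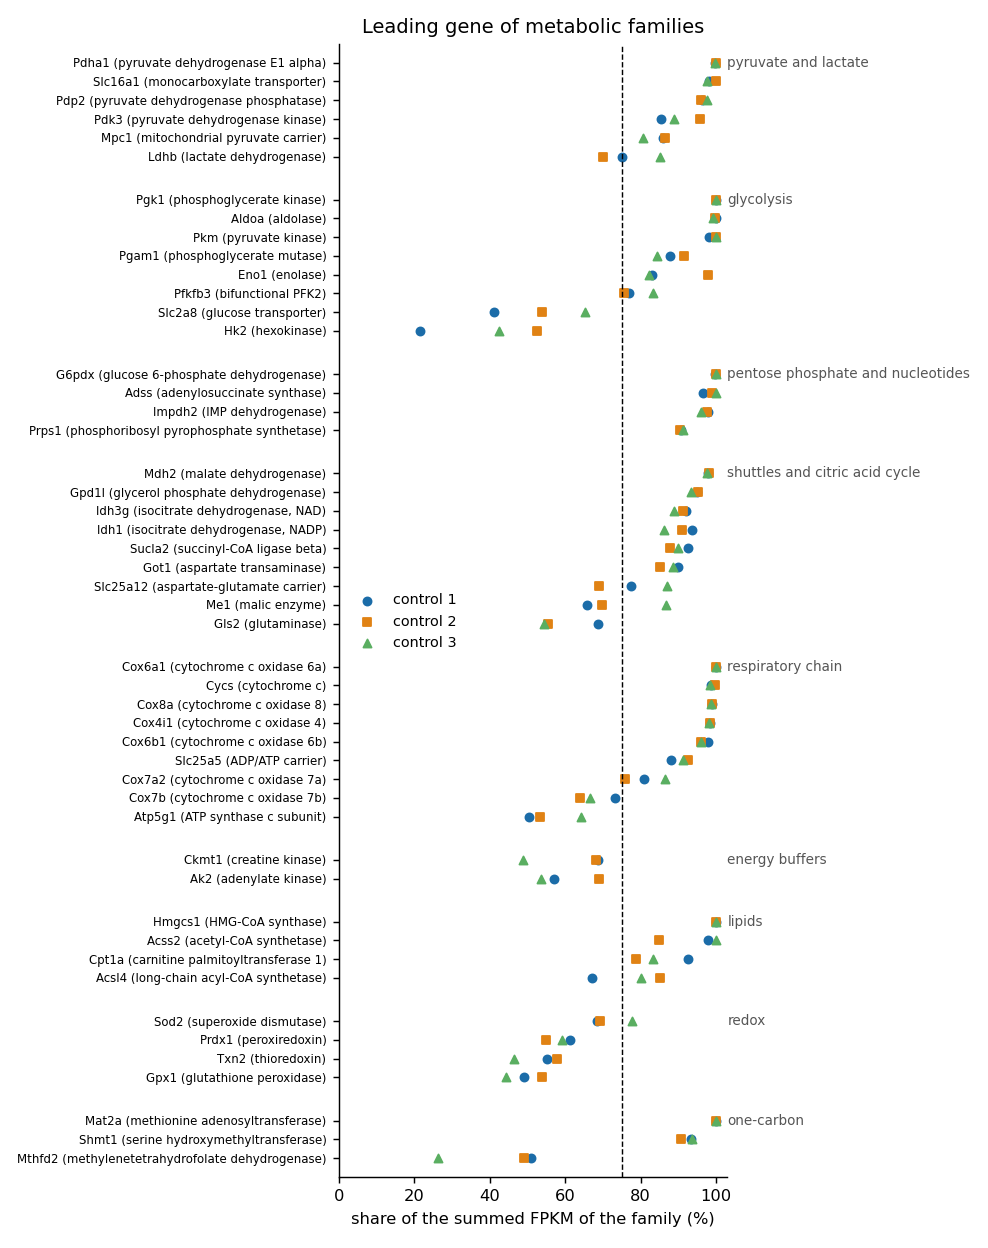
Share of the summed FPKM of its family (x axis, percent) held by the gene with the highest mean, for metabolic families grouped by area (y axis), with 1 marker per control library. The dashed line is 75%. In 33 families all 3 markers lie at or beyond it, and the markers farthest left are Hk2 in control 1, at 21.6%, and Mthfd2 in control 3, at 26.3%.

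The spread between libraries depended on level. Over the 9380 genes averaging 1 FPKM or more, the median CV was 20.8%. By level class the median was 63.5% from 0.1 to 1 FPKM, 31.4% from 1 to 3, 22.9% from 3 to 10, 16.7% from 10 to 30, 13.1% from 30 to 100, 11.4% from 100 to 1000 and 10.3% above 1000 FPKM. Across genes, which are not independent replicates, Spearman's rho between pairs of libraries was 0.936, 0.925 and 0.925, and Pearson's r of log2(FPKM + 1) was 0.970, 0.966 and 0.965. Between 5.53% and 6.04% of these genes differed by more than 2-fold in a pair of libraries.

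At a mean of 10 FPKM or more, leaving out Gm and Rik symbols, the most even was Npm1 at 1211, 1207 and 1205 FPKM, followed by Inip, of a single-strand DNA sensor complex, at 21.3, 21.5 and 21.4 FPKM. The widest spread belonged to BC023719 at 0, 32.7 and 0 FPKM, Bcl2l10 at 2.79, 5.54 and 49.0 FPKM and Usp17lb, given above. Bcl2l10, an oocyte member of the Bcl2 family, stood apart in control 3, as did Tcl1, a maternal coactivator of the Akt kinase, at 21.4, 24.3 and 69.0 FPKM, and its neighbour Tcl1b1 at 6.63, 13.8 and 36.9 FPKM. BC023719, Fkbp6, a chaperone of meiosis, at 15.9, 41.5 and 7.80 FPKM and Magea5 at 11.8, 27.7 and 5.62 FPKM were highest in control 2.

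**Figure D4:**
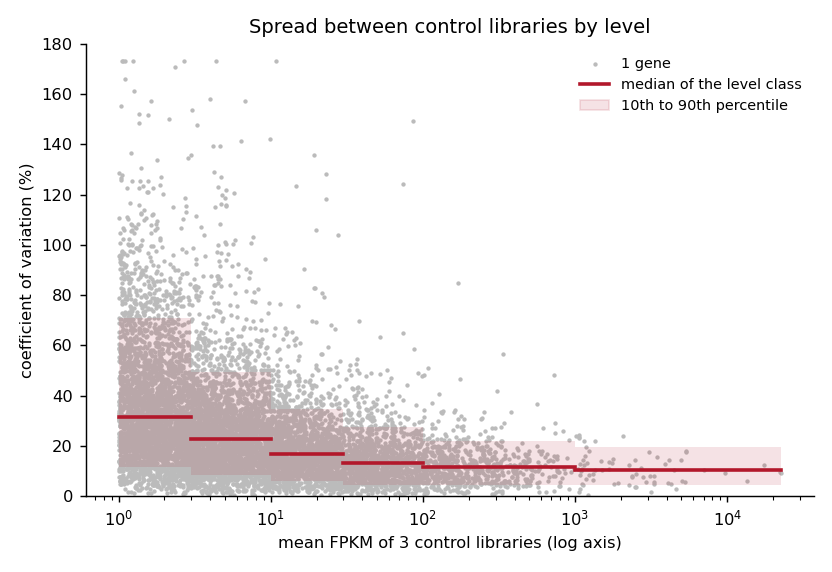
Coefficient of variation over the 3 control libraries (y axis, percent) against mean FPKM (x axis, log) for 9380 genes. Red lines are the medians of level classes and the bands run from the 10th to the 90th percentile. The median is 31.4% at the lowest class shown and 10.3% at the highest.

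Which library was highest differed between gene groups. Over all 9380 genes 31.0%, 35.1% and 33.9% were highest in controls 1, 2 and 3. Of 33 genes of the oocyte list 26 were highest in control 3, 6 in control 1 and 1 in control 2. Control 3 was also highest for 12 of 16 lineage genes, 14 of 22 chromatin genes, 13 of 17 heterogeneous nuclear ribonucleoprotein genes and 17 of 22 transfer RNA genes of mitochondrial DNA, so this order was not particular to the oocyte list. These groups are not all separate, since the chromatin list shares Dppa3 with the oocyte list. The transfer RNA genes lie on the same DNA as the mitochondrial coding genes given below. Of 26 genes of the 2-cell list 16 were highest in control 2, 6 in control 3 and 4 in control 1, with all 3 Zscan4 genes at this level among those of control 3. Of 83 cytosolic ribosomal protein genes 74 were highest in control 1, as were 54 of 77 mitochondrial ribosomal protein genes and 16 of 25 histone genes. Of the 13 coding genes of mitochondrial DNA 11 were highest in control 3.

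The sizes behind these counts were unequal. The median deviation from the gene's own mean, on the log2 scale, was -0.37, -0.13 and 0.39 for the oocyte list, -0.46, 0.30 and -0.12 for the 2-cell list, 0.13, -0.07 and -0.07 for cytosolic ribosomal proteins and -0.15, -0.04 and 0.15 for the coding genes of mitochondrial DNA, beside -0.03, 0.01 and -0.02 for all genes. Of the oocyte genes 13 of 33 and of the 2-cell genes 12 of 26 had a CV above 50%, against 11.5% of all genes. The CV depended on level, as given above. Of the 6 oocyte genes highest in control 1, Dppa3, Oosp1 and Padi6 had CVs of 5.87%, 14.1% and 7.56%. Aurkc, another of the 6, spread more widely, as its values given above show. Under scaling by median ratios, scaling to a common sum, or without genes of mitochondrial DNA, 26 oocyte genes were highest in control 3 and 16 genes of the 2-cell list in control 2, and 65 to 77 cytosolic ribosomal protein genes in control 1. With all listed members above 0 counted, whatever their level, 41 of 56 oocyte genes were highest in control 3 and 22 of 36 genes of the 2-cell list in control 2. Each library is a single sample, so these counts compare libraries and carry no test.

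**Figure D5:**
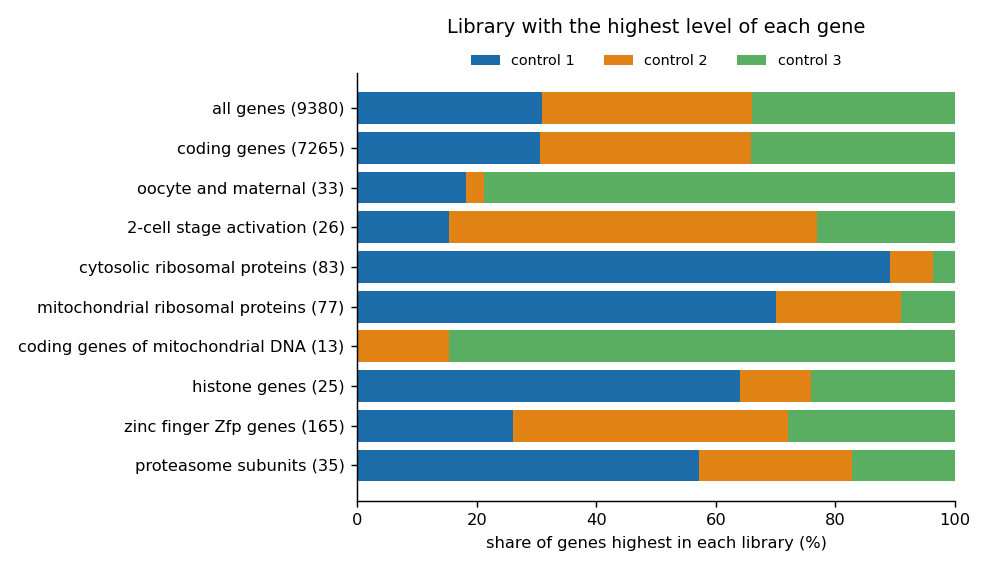
Share of genes (x axis, percent) that were highest in each control library, for all genes, coding genes and 8 groups (y axis, in brackets, genes averaging 1 FPKM or more). All genes divide into 31.0%, 35.1% and 33.9%, the oocyte list is mostly control 3, the 2-cell list mostly control 2 and cytosolic ribosomal proteins mostly control 1.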

How the data were processed

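Full-length complementary DNA was made from embryos with an oligo(dT) primer, amplified by long-distance PCR, fragmented enzymatically and sequenced in paired ends, per the labels' protocols. FPKM per gene is the authors' deposited unit, and the gene table was used as deposited, with only the 3 control columns. The submitters' processing notes name cutadapt 1.9, HISAT2 2.2.1, StringTie 2.1.6, DESeq2, edgeR and GRCm38. The role of each, the annotation release, strand, molecular identifiers and the assignment of reads shared by near-identical copies were found in none of the sources used here. Low values were not whole multiples of a common step (at best 13.8%, 14.1% and 17.0% lay within 0.05 of a whole number), so no reads were recovered and the depth, and any counting interval, is unknown.

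Means, SDs, CVs, shares of summed FPKM and log2(FPKM + 1) medians were computed with Python 3.11.15, pandas 2.3.3, numpy 2.4.6 and matplotlib 3.10.9, and the code was tested on simulated data. Near-identical copies were pairs of longest transcripts of GENCODE M21 with at least 95% identity over at least 50% of the shorter transcript and at least 100 bases, by BLAST 2.17.0. Promoter sequences are those of RefSeq, GRCm38.p6. With 1 group no test between conditions was made, and 3 pairs allow a two-sided exact p of no less than 0.25.

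The members, gene lists and families were chosen with earlier results of these data known, and the patterns that define families and paralogs were narrowed after values were seen. Genes were named as the 30 highest by mean, up to 4 highest members of each role or family and members listed at 0, all members of metabolic families, and the 10 largest and 10 smallest CVs at a mean of at least 10 FPKM without Gm or Rik symbols. Other genes were named after their values were seen, among them flanking genes, copies, promoter examples and lower list members. Alternatives were other thresholds, pseudocounts and scalings, gene classes left out, and each library left out. A few genes and sequences are not reported here.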

Additional observations from a re-analysis of the deposited data

How the results depend on the processing

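The values describe 3 libraries of unknown depth, and no test rests on them. No paired analysis was possible because only 1 group was described. Over 20 results, 77 of 109 alternatives stayed within the spread or 1.5 times the count and 32 moved. Part of the 77 could not have moved. Scaling to a common sum cannot change a share, and leaving out 1 of 3 libraries cannot move a mean share by its SD. The count is therefore no measure of stability. Reversals were not scored. With 5 FPKM as threshold, 4349 genes replaced 8055. Without genes of mitochondrial DNA, the top 10 took 17.2% in place of 21.98%, cytosolic ribosomal proteins 7.06% in place of 5.87%, the oocyte list 3.28% in place of 2.73%, the 2-cell list 0.357% in place of 0.297% and the pluripotency list 1.29% in place of 1.08%. Without Gm models, coding genes of mitochondrial DNA took 19.6% in place of 14.9%, cytosolic ribosomal proteins 7.72%, and the 3 lists 3.58%, 0.384% and 1.41%. Without their leading gene, an alternative added after the data were seen, the lists took 0.105%, 0.0572% and 0.320%. With a pseudocount of 0.1 the list medians were 0.61, 1.37 and 2.15 in place of 1.28, 1.80 and 2.42. Over members with a mean of at least 1 FPKM they were 2.76, 2.23 and 3.07, which turned the order of the oocyte and 2-cell lists. At a share of 90%, 20 metabolic families replaced 33. The median CV of 20.8% became 14.2% at a mean of at least 10 FPKM, 56.7% with no filter and 18.5% from log2 values. The lowest Spearman's rho of 0.925 became 0.943 at a mean of at least 10 FPKM and 0.848 with no filter, and Pearson's r was 0.965. The changes with thresholds, filters and totals follow from which genes are counted.

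Leaving out each library in turn gave 8327 to 8565 genes, top 10 shares of 21.04% to 22.7%, mitochondrial coding shares of 14.1% to 15.6%, ribosomal protein shares of 5.57% to 6.06%, list shares of 2.64% to 2.77%, 0.283% to 0.319% and 1.03% to 1.11%, list medians of 1.05 to 1.42, 1.51 to 1.85 and 2.32 to 2.40, 34 to 35 families, Ldhb shares of 72.5% to 80.1%, median CVs of 16.0% to 18.3% and rho of 0.922 to 0.932.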
